A study of Mus musculus with 9 samples.

Results

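The genes described here are 40 protein-coding genes of the dividing cell, 20 that act in DNA replication and 20 that act in mitosis, among the 48397 gene symbols counted in each library. They were chosen by symbol from textbook roles and not by a threshold on these data. Earlier results of these data were known at that choice, so the set is not an independent test. All 40 were found and passed the filter on low counts that left 16522 genes for testing. The libraries are bulk RNA-seq of the dissected cardiac outflow tract, the vessel that joins the embryonic heart to the aorta and the pulmonary artery, taken at embryonic day 12.5 from mouse embryos of the C57BL/6J strain. A total of 4 libraries are wild type (Nkx2-5+/+) and 5 are labelled Nkx2-5delta-enh/delta-enh, that is homozygous for deletion of an enhancer of Nkx2-5 that is active in the anterior second heart field. Nkx2-5 is a homeodomain transcription factor of heart progenitors, and the second heart field is the pool of progenitors that lengthens the outflow tract. No source used here says whether a library is 1 embryo or a pool of several, so p-values measure the spread between these samples.

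The submitters describe the wild types as littermates, and each library's file carries a number that was read here as its litter. That reading is an assumption: the number could stand for something else that the libraries share. By it, wild type 1, wild type 2, deletion 1 and deletion 2 form the first litter, and wild type 3, wild type 4, deletion 3 and deletion 4 the second, so each litter holds 2 libraries of each genotype. The number of deletion 5 occurs once, and that library was kept apart. Nothing says how far litters differed in dissection, age within the day or library preparation, and these cannot be told apart from the litter. Values are in CPM, the usual depth-scaled count, with the total of reads assigned to genes scaled by TMM, and are listed for the first litter as wild type 1, wild type 2, deletion 1, deletion 2 and for the second as wild type 3, wild type 4, deletion 3, deletion 4.

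As background, a cell that leaves G1 loads the MCM helicase on replication origins, fires it in S phase and copies its DNA with a fork whose clamp is PCNA. Genes for these steps are targets of the E2F factors, which the RB family holds inactive until cyclin-dependent kinases phosphorylate it, and E2F sites have cores such as TTTCGCGC or TTTGGCGC. Genes for mitosis are switched on later, in G2, by the MuvB complex with B-MYB and FOXM1, which binds the cell cycle genes homology region (CHR, TTTGAA), often beside CCAAT boxes bound by NF-Y. Both groups are repressed by the DREAM complex in resting cells, and their summed RNA is widely used as a measure of how many cells of a tissue are cycling. In bulk tissue, fewer cycling cells and less of these RNAs per cell cannot be told apart.

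The promoters of the genes carry these motifs at unlike rates, and 4 of them are printed because they hold the most matches to the motifs of their group. Each runs 5′ to 3′ on the gene's own strand, from 250 bases before to 50 bases after the RefSeq start (GRCm38.p6). Capitals mark matches on either strand to the E2F cores in Mcm6 and Mcm5, helicase subunits, and to CHR or CCAAT in Top2a, the topoisomerase that untangles mitotic chromosomes, and Ube2c, an enzyme of the anaphase-promoting complex.
Mcm6 (chr1:128359656-128359955, minus strand): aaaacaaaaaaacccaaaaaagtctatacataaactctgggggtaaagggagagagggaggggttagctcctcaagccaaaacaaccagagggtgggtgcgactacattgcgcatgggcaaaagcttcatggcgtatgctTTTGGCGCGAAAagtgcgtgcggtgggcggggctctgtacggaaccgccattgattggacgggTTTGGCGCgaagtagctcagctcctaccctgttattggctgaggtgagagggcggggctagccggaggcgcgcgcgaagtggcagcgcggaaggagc
Mcm5 (chr8:75109259-75109558, plus strand): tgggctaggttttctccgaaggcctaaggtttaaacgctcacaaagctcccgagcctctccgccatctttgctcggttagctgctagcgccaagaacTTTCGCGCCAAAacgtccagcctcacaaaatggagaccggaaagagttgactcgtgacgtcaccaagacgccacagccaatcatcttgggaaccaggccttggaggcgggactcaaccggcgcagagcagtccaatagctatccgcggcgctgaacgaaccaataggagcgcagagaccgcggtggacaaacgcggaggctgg
Top2a (chr11:99024140-99024439, minus strand): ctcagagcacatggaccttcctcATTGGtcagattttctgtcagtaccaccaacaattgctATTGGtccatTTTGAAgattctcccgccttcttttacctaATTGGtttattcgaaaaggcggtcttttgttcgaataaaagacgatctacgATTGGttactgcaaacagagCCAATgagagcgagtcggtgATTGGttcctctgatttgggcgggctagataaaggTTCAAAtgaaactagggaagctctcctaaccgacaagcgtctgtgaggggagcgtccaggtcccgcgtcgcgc
Ube2c (chr2:164769679-164769978, plus strand): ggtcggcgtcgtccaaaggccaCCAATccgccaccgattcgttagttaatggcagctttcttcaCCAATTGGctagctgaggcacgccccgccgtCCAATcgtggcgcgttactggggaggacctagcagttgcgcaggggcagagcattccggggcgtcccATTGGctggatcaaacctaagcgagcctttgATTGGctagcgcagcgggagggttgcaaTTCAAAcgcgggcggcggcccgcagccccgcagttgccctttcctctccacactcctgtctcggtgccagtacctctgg
Mcm6 held 3 E2F matches, of which 2 overlap each other on opposite strands, and the 2 of Mcm5 overlap in the same way. Top2a held 2 CHR and 6 CCAAT matches, and Ube2c held 1 CHR and 6 CCAAT matches, of which 2 overlap. Promoters were matched for 34 of the 40 genes: 20 promoters of 17 replication genes and 17 promoters of 17 mitosis genes. Mcm4, Gins2, Ccne2, Aurkb, Ccna2 and Tpx2 were unmatched. An E2F core stood in 30.0% of the replication promoters, in 5.88% of the mitosis promoters and in 0.813% of all 32851 promoters of the same length. A CHR stood in 15.0%, 70.6% and 17.9% of them in that order, a CCAAT in 65.0%, 88.2% and 37.4%, and both CHR and CCAAT in 10%, 70.6% and 6.95%. The 6 replication genes with an E2F core were Cdt1, Mcm3, Mcm5, Mcm6, Mcm7 and Uhrf1, and the mitosis gene with one was Cdk1. A match is a description of these letters, not a bound site.

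Reads assigned to genes ranged from 27707435 to 49094225 per library, and 39 of the 40 genes had between 649 and 22700 reads in every library. Nkx2-5 itself was at 18.8, 41.97, 44.99 and 39.5 CPM in wild type 1 to 4 and at 16.5, 24.4, 17.8, 11.4 and 17.4 CPM in deletion 1 to 5. Wild type 1 thus lay inside the deletion range. The labels name an enhancer deletion and not one of the gene itself, so these counts are no direct check of the genotypes. Marker lists of 11 cell types were read beside the genes. Cardiac muscle markers summed to between 9397 and 22500 CPM, and outflow tract and second heart field markers to between 893.5 and 1217 CPM. No gene of either list was under 1 CPM throughout. Heart muscle and outflow tract genes were thus present, but cardiac muscle genes alone do not tell the outflow tract from other parts of the heart. Deletion 2 stood apart with 2818 CPM of neuron and Schwann cell markers, against 77.3 to 135 CPM in the other libraries of both litters. Erythroid, macrophage and skeletal muscle markers also varied between the libraries, and their values are given beside the results they move with.

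Levels of different genes were set side by side per kilobase of exon, counting every annotated exon of a gene. This length can exceed that of the RNA made, and the annotation used for counting is not given, so the order is approximate. The highest mean level was that of Rrm2, the small subunit of ribonucleotide reductase, at 92.1 CPM per kb. Cdc20, an activator of the anaphase-promoting complex, followed at 85.0 CPM per kb, and Ccnb2, a cyclin B, at 83.2 CPM per kb. The lowest were Kif23, a kinesin of cytokinesis, at 6.33 CPM per kb, Cenpf, a kinetochore protein, at 4.05 CPM per kb, and Fen1, the flap nuclease of lagging strand synthesis, at 0.503 CPM per kb. Fen1 had 28 to 87 reads in a library. Of its exon bases, 84.2% are shared with 2 genes, Tmem258 and Gm10143, on the opposite strand, and 3.74% to 4.02% of the reads were set aside by the authors' counting as ambiguous between genes. The part of this overlap in the low count was not tested, and no level of Fen1 transcription is read from it. A further 10 of the 40 genes share some exon bases with an opposite-strand gene, with the largest shares at 67.3% for Gins2 (with Gse1) and 22.8% for Ube2c (with Tnnc2), and the strand setting of the counting is not given in the sources used here.

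All 40 genes had a higher estimate in the second litter than in the first, and 25 of them passed the test. The litters were compared with edgeR's quasi-likelihood test on the counts, with genotype as a covariate and Benjamini-Hochberg adjustment over all genes tested at 0.05. Each side is a single litter by this reading. The p-values therefore measure the spread between libraries within litters and not the spread from litter to litter. Of the replication genes 10 of 20 rose and 0 fell, with a median log2 difference of 0.40 over the 20, and of the mitosis genes 15 of 20 rose and 0 fell, with a median of 0.50. Among the genes that rose the size ran from 1.26-fold for Ccnb2 to 1.74-fold for Plk1. Over all genes tested the median was -0.03, 9.65% were called in either direction, 5.48% were called higher, 4.17% were called lower and 46.6% had an estimate above 0. These 905 higher calls of 1594 became 682 of 1473 with upper quartile scaling, which left 9 replication and 12 mitosis genes called, all higher. At an unadjusted p under 0.05 the counts were 12 and 19 of 20, against 27.2% of all genes. In 28 of the 40 genes all 4 libraries of the second litter lay above all 4 of the first, which was so for 11.1% of all genes, and in 0 did they lie below, against 8.36%. The estimate stayed above 0 in every alternative fit for 35 of the 40, the others being Pcna, Gins2, Ccne1, Ccne2 and Slbp.

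**Figure D1:**
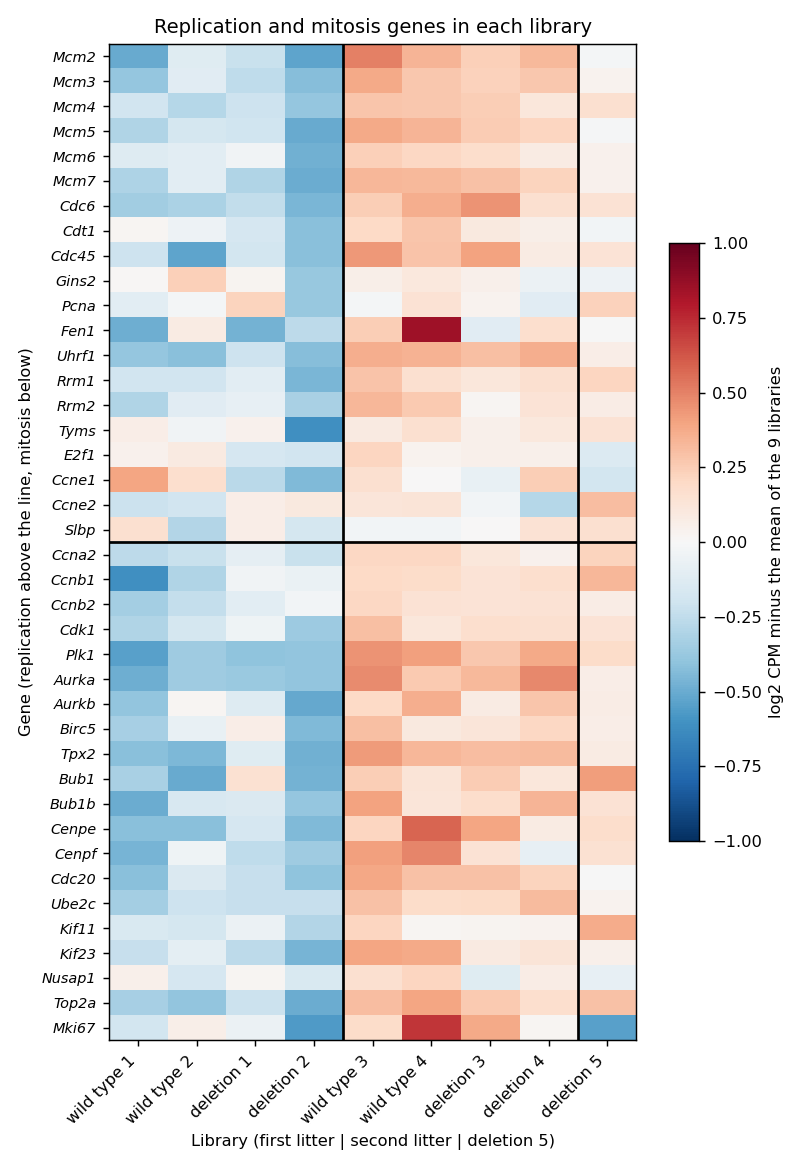
Heat map of the 40 genes (rows, replication above the line and mitosis below) in the 9 libraries (columns, in the order first litter, second litter, deletion 5). Colour gives log2 CPM minus the gene's mean over the 9 libraries. The first litter is mostly blue and the second mostly red for the MCM genes, Uhrf1, Plk1, Aurka and Tpx2, while E2f1, Ccne1, Ccne2 and Slbp show no such step.

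The MCM genes encode the 6 subunits of the replicative helicase, and 5 of the 6 rose. Mcm2 stood at 128, 166, 155 and 125 CPM in the first litter, 256, 228, 213 and 227 CPM in the second and 178 CPM in deletion 5. Mcm3 measured 152, 185, 167 and 149 CPM in the first litter, 259.6, 241, 235 and 240.5 CPM in the second and 205 CPM in deletion 5. Mcm5 was at 129, 141, 138 and 112 CPM in the first litter, 207, 200.3, 189 and 184 CPM in the second and 157 CPM in deletion 5. In each of these genes the lowest library of the second litter was above the highest of the first, with wild type 3 the highest of all. Mcm4 stood at 186, 174, 184 and 162 CPM in the first litter, 258, 255, 252 and 229.9 CPM in the second and 238 CPM in deletion 5. Mcm7 measured 118, 136, 119 and 104 CPM in the first litter, 184, 182, 179 and 170.1 CPM in the second and 151 CPM in deletion 5. Mcm6, the remaining subunit, was at 278, 283, 296 and 217 CPM in the first litter, 358, 350.1, 343 and 321 CPM in the second and 313 CPM in deletion 5. Both litters were again apart in all of these genes, with deletion 2 the lowest library in each. The log2 difference between litters was 0.69 (SE 0.11) for Mcm2, 0.58 for Mcm3, 0.50 for Mcm4, 0.58 for Mcm5 and 0.59 for Mcm7, with adjusted p from 0.00803 to 0.0102. That of Mcm6 was 0.35 (SE 0.10) with adjusted p = 0.0585 and did not pass, although it passed with DESeq2 at adjusted p = 0.0121.

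Genes for loading and firing the helicase differed unevenly, with 2 of 4 passing. Cdc6, which loads MCM onto origins, stood at 30.5, 31.2, 32.8 and 28.3 CPM in the first litter, 46.2, 50.1, 53.1 and 43.6 CPM in the second and 42.9 CPM in deletion 5. Cdc45, a part of the active helicase, measured 28.8, 23.1, 29.4 and 24.9 CPM in the first litter, 44.8, 40.5, 43.9 and 35.3 CPM in the second and 36.5 CPM in deletion 5. Both rose, by 0.65 (SE 0.10) and 0.63 (SE 0.12) on the log2 scale with adjusted p = 0.00909 and 0.0181, and their litters did not overlap. Cdt1, the loading partner of Cdc6, was at 35.3, 33.6, 31 and 26.1 CPM in the first litter, 39.99, 42.1, 37.1 and 36.3 CPM in the second and 34.2 CPM in deletion 5. Gins2, another part of the active helicase, stood at 29.6, 34.8, 30 and 22.6 CPM in the first litter, 30.6, 31.7, 30.4 and 28.3 CPM in the second and 28.4 CPM in deletion 5. The litters of Cdt1 did not overlap, but its difference of 0.31 (SE 0.09) had adjusted p = 0.0669 with edgeR and 0.0287 with DESeq2. Those of Gins2 overlapped, at 0.05 (SE 0.12) with adjusted p = 0.818.

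Among genes of the fork, Uhrf1, which brings the maintenance methyltransferase to newly copied DNA, stood at 97, 95.2, 109.7 and 94.3 CPM in the first litter, 163, 161, 156 and 163 CPM in the second and 133 CPM in deletion 5. It rose by 0.70 (SE 0.08) on the log2 scale, adjusted p = 0.00389, the smallest among the replication genes. Pcna, the sliding clamp, stood at 121, 129, 153 and 101 CPM in the first litter, 129, 145, 134 and 121 CPM in the second and 153 CPM in deletion 5. Its litters overlapped, with a log2 difference of 0.07 (SE 0.13) and adjusted p = 0.766, and its 2 highest values belonged to deletion 1 and deletion 5. Fen1 measured 0.834, 1.24, 0.846 and 0.977 CPM in the first litter, 1.4, 2.11, 1.09 and 1.32 CPM in the second and 1.17 CPM in deletion 5, at a depth that gave it an SE of 0.34 around 0.58 and an adjusted p of 0.309. Of 3 copies with a Pcna or Ccnb2 pseudogene symbol, Pcna-ps2 reached at most 2.03 CPM, Ccnb2-ps at most 2.76 CPM and Pcna-ps1 had no read.

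Both subunits of ribonucleotide reductase, the enzyme that makes deoxyribonucleotides, rose. Rrm1 stood at 359, 359.8, 381 and 299 CPM in the first litter, 499, 459, 444 and 458 CPM in the second and 477 CPM in deletion 5. Rrm2 measured 205, 233, 239 and 202 CPM in the first litter, 317, 303, 255 and 278 CPM in the second and 265 CPM in deletion 5. The differences were 0.41 (SE 0.09) and 0.39 (SE 0.09) with adjusted p = 0.0281 and 0.036, and the litters did not overlap in either. Tyms, thymidylate synthase, was at 99.1, 92.3, 97.1 and 61.6 CPM in the first litter, 101, 105, 97.7 and 102 CPM in the second and 104 CPM in deletion 5. Its litters overlapped and its difference of 0.22 (SE 0.13) had adjusted p = 0.339. Deletion 2 was the lowest of the 9 libraries and the others lay between 92.3 and 105 CPM.

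The 4 regulators of the G1 to S step did not pass the test, with a median log2 difference of 0.10. E2f1, an activating E2F, stood at 35.7, 37, 30.9 and 30.4 CPM in the first litter, 40.2, 35.5, 36 and 36 CPM in the second and 31.6 CPM in deletion 5. Ccne1, a cyclin E that drives entry into S phase, measured 48.3, 41.4, 30.4 and 27 CPM in the first litter, 41.1, 36.8, 34.9 and 43.7 CPM in the second and 32.5 CPM in deletion 5. Ccne2, the other cyclin E, was at 59.4, 60.5, 72.3 and 73.8 CPM in the first litter, 75.1, 75.5, 67.7 and 56.7 CPM in the second and 85.5 CPM in deletion 5. The litters overlapped in all of these genes: the highest Ccne1 value was that of wild type 1 in the first litter, and the highest Ccne2 value was that of deletion 5. Slbp, the histone stem-loop binding protein, stood at 127, 92.9, 119 and 101 CPM in the first litter, 112, 112, 114 and 126 CPM in the second and 127 CPM in deletion 5, and overlapped as well. The log2 differences were 0.14 (SE 0.09), 0.12 (SE 0.15), 0.05 (SE 0.12) and 0.07 (SE 0.11) in that order, with adjusted p from 0.332 to 0.838, and 0 of the 4 passed with edgeR, with DESeq2 or at an unadjusted p under 0.05.

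The 3 mitotic cyclins and their kinase all rose. Ccna2, cyclin A, stood at 188, 194, 212 and 193 CPM in the first litter, 260.3, 260.3, 244 and 233 CPM in the second and 264 CPM in deletion 5. Ccnb1, a cyclin B that takes cells into mitosis, measured 134, 166, 200 and 196 CPM in the first litter, 236, 233, 225 and 229.9 CPM in the second and 258 CPM in deletion 5. Ccnb2 was at 100, 107, 117 and 124 CPM in the first litter, 146, 139.8, 139 and 139.9 CPM in the second and 133 CPM in deletion 5. In Ccnb1 and Ccnb2 the wild types held the lowest values of the first litter, and the litters did not overlap. Cdk1, the kinase these cyclins activate, stood at 148, 162, 177 and 142 CPM in the first litter, 225, 197, 206 and 205 CPM in the second and 201 CPM in deletion 5, with the litters apart as well. The differences were 0.34 (SE 0.08), 0.42 (SE 0.11), 0.34 (SE 0.08) and 0.40 (SE 0.09), with adjusted p from 0.0303 to 0.0484.

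Mitotic kinases and their partners had the largest role median, 0.71, and 4 of 5 rose. Plk1, which acts from mitotic entry to cytokinesis, stood at 70.8, 80.7, 77.8 and 78.3 CPM in the first litter, 141, 137, 124 and 134 CPM in the second and 117 CPM in deletion 5. Aurka, the Aurora kinase of spindle poles, measured 67.8, 74.5, 73.5 and 72.5 CPM in the first litter, 132, 114, 119 and 132 CPM in the second and 99.4 CPM in deletion 5. Tpx2, which activates Aurka on the spindle, was at 96.2, 94.3, 119 and 92.1 CPM in the first litter, 173, 163, 159.9 and 161 CPM in the second and 136 CPM in deletion 5. In these genes the lowest library of the second litter stood well above the highest of the first, at 124 against 80.7 CPM for Plk1. Their differences were 0.80 (SE 0.08), 0.79 (SE 0.08) and 0.71 (SE 0.10), with adjusted p = 0.00349, 0.00384 and 0.00753. Aurkb, the Aurora kinase of the chromosomal passenger complex, stood at 60.6, 80.8, 72.9 and 56 CPM in the first litter, 91.5, 102, 84.5 and 96.7 CPM in the second and 84 CPM in deletion 5. Birc5, survivin of the same complex, measured 92, 109.5, 121 and 85.2 CPM in the first litter, 142, 123, 126 and 133 CPM in the second and 121 CPM in deletion 5. Aurkb rose by 0.47 (SE 0.12) with adjusted p = 0.0456, while Birc5 at 0.36 (SE 0.12) had adjusted p = 0.0895 with edgeR and 0.0401 with DESeq2, and in both the litters were apart.

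Among checkpoint and kinetochore genes 3 of 4 rose. Bub1b, the BubR1 checkpoint kinase, stood at 96, 121, 123 and 104 CPM in the first litter, 179, 147, 152 and 171 CPM in the second and 149 CPM in deletion 5. Cenpe, a kinetochore motor, measured 44.1, 44, 52.4 and 43.2 CPM in the first litter, 68.4, 87.9, 77.5 and 62.4 CPM in the second and 66.4 CPM in deletion 5. Cenpf was at 44.3, 59.3, 51.2 and 47.6 CPM in the first litter, 81.3, 85.6, 67.4 and 57.6 CPM in the second and 67.8 CPM in deletion 5. Wild type 3 or wild type 4 was highest in each, and in Cenpf deletion 4 of the second litter lay inside the range of the first. The differences were 0.55 (SE 0.11), 0.69 (SE 0.12) and 0.51 (SE 0.12), with adjusted p = 0.0191, 0.0148 and 0.0341. Bub1, the checkpoint kinase that recruits them, stood at 107, 94.6, 149 and 96.6 CPM in the first litter, 159.6, 147, 160.5 and 145 CPM in the second and 179 CPM in deletion 5. Deletion 1 was high for its litter and deletion 5 the highest of all, and the difference of 0.46 (SE 0.14) had adjusted p = 0.0694 with edgeR and 0.0191 with DESeq2.

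Both genes of the anaphase-promoting complex rose. Cdc20 stood at 117, 141, 133 and 118 CPM in the first litter, 203, 190.2, 191 and 181 CPM in the second and 155 CPM in deletion 5. Ube2c measured 129.6, 143, 140 and 140 CPM in the first litter, 202, 187, 187 and 204 CPM in the second and 168 CPM in deletion 5. Their differences were 0.59 (SE 0.09) and 0.50 (SE 0.07), both with adjusted p = 0.00842, and neither gene's litters overlapped.

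Of the motor, spindle and chromosome genes 2 of 5 rose. Top2a stood at 331, 317, 360.1 and 296 CPM in the first litter, 518, 549.6, 501 and 469 CPM in the second and 511 CPM in deletion 5. Kif23 measured 41.9, 46, 41 and 35.7 CPM in the first litter, 64.7, 63.7, 52.2 and 53.7 CPM in the second and 51 CPM in deletion 5. Their litters did not overlap, with differences of 0.64 (SE 0.09) and 0.51 (SE 0.08) and adjusted p = 0.00803 and 0.0113. Kif11, the kinesin that separates spindle poles, was at 114, 112, 121 and 103 CPM in the first litter, 147, 128, 129 and 129.7 CPM in the second and 163 CPM in deletion 5. Mki67, whose protein coats mitotic chromosomes and is the usual proliferation antigen, stood at 54.7, 64.7, 59.6 and 42.1 CPM in the first litter, 70.7, 102, 81 and 63.1 CPM in the second and 42.7 CPM in deletion 5. Nusap1, a spindle-associated protein, measured 104, 88.9, 101 and 89.6 CPM in the first litter, 111, 116, 91.8 and 105 CPM in the second and 94.5 CPM in deletion 5. Mki67 had the wider spread, with wild type 4 highest and deletion 2 and deletion 5 lowest, and its litters overlapped, as did those of Nusap1, while those of Kif11 did not. The differences were 0.24 (SE 0.08) for Kif11, 0.52 (SE 0.16) for Mki67 and 0.14 (SE 0.09) for Nusap1, with adjusted p = 0.0977, 0.0706 and 0.37. Mki67 passed with DESeq2 at adjusted p = 0.0188.

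Set beside the promoters, the median litter difference was 0.58 over the 6 replication genes with an E2F core and 0.39 over the 11 without one, and 0.52 over the 12 mitosis genes with a CHR and 0.42 over the 5 without one. The 2 genes printed with CHR and CCAAT matches, Top2a and Ube2c, both rose, and of the 2 printed with E2F cores Mcm5 did and Mcm6 did not pass. These medians are a description of a few genes and were not tested.

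DESeq2 called 30 of the 40 genes between litters, 12 replication and 18 mitosis genes, and these included all 25 called by edgeR, with 17.7% of all genes called. Across the edgeR fit and its 16 alternatives, 14 genes were called every time: Mcm2, Mcm3, Mcm4, Mcm5, Mcm7, Cdc6, Uhrf1, Plk1, Aurka, Cdc20, Kif23, Top2a, Ube2c and Tpx2. Leaving out deletion 3 left 7 replication and 7 mitosis genes, leaving out wild type 3 or wild type 4 left 7 and 8, and leaving out deletion 4 left 8 and 9. Leaving out deletion 2, the library with the neuronal markers, left 9 and 14. Leaving out wild type 1, whose Nkx2-5 count lay in the deletion range, left 8 and 10.

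The litter difference was measured in each genotype from 2 libraries against 2. In the wild types 6 replication genes (Mcm2, Mcm3, Mcm4, Mcm5, Mcm7 and Uhrf1) and 10 mitosis genes passed, all higher in the second litter, with 4.24% of all genes called, 1.82% higher and 2.42% lower. The medians were 0.46 and 0.57, with 38 of the 40 estimates above 0 against 48.8% of all genes, and 28 had an unadjusted p under 0.05 against 20.1%. In the deletion libraries 0 of the 40 passed with edgeR, where 0.194% of all genes did (0.0787% higher and 0.115% lower), and 12 replication and 12 mitosis genes had an unadjusted p under 0.05 against 19.3% of all genes. The medians were 0.40 and 0.47 there, 39 of the 40 estimates were above 0 against 47.6% of all genes, and Plk1 and Aurka had the smallest adjusted p of the 40, 0.0565. The test of the difference between genotypes, given further on, called none of the 40. Markers moved in the same comparisons. In the wild types 6 of 13 erythroid genes and 6 of 8 macrophage genes were called lower in the second litter, with medians of -1.70 and -1.96, and of 8 cushion and neural crest genes 4 were called higher and 1 lower, with a median of 1.03. In the deletion libraries these lists had medians of 0.55, -0.997 and 0.22, with 1 erythroid gene and 1 macrophage gene called lower, and the neuron and Schwann list, high in deletion 2 of the first litter, had a median of -2.78 with 0 of 11 called by edgeR and 6 at an unadjusted p under 0.05. Their part in the values of the 40 genes was not tested.

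As means of log2 CPM over 20 genes, the replication genes were at 6.17, 6.21, 6.21 and 5.96 in the first litter, at 6.58, 6.58, 6.48 and 6.46 in the second and at 6.41 in deletion 5. The mitosis genes were at 6.55, 6.68, 6.76 and 6.54, then at 7.20, 7.18, 7.09 and 7.08, and at 7.01 in deletion 5. Neither group overlapped between the litters. The mean of the mitosis genes minus that of the replication genes was 0.38 and 0.46 in wild type 1 and wild type 2, 0.56 and 0.58 in deletion 1 and deletion 2, and 0.60 to 0.62 in all other libraries. Of the assigned reads, the 40 genes together took 0.421% to 0.497% in the first litter's libraries, 0.5996% to 0.653% in those of the second and 0.565% in deletion 5. Deletion 2 was the lowest of the 9 libraries for 25 genes and wild type 3 the highest for 19. Libraries of the first litter also lay farther apart: the median SD of log2 CPM was 0.17 in the first and 0.08 in the second litter for the replication genes, 0.14 and 0.09 for the mitosis genes, and 0.28 and 0.17 over all genes.

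**Figure D2:**
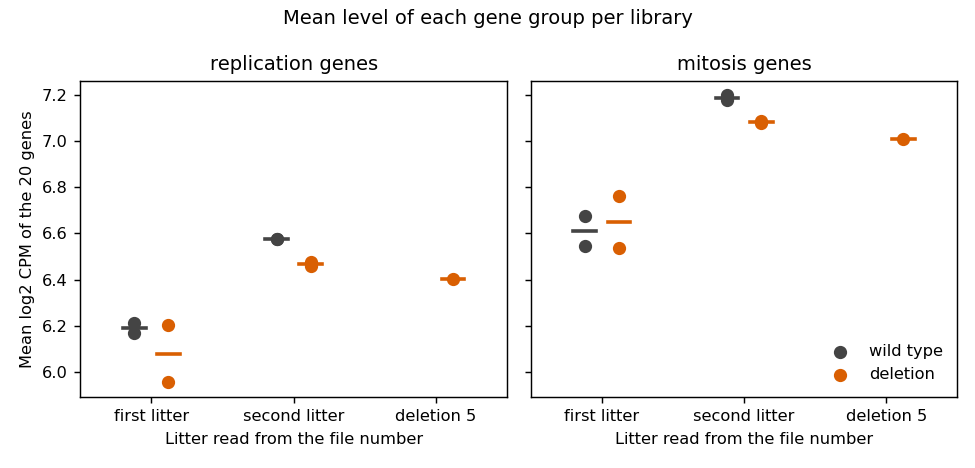
Mean log2 CPM of the 20 replication genes (left) and the 20 mitosis genes (right) in each library, by litter read from the file number. Points are libraries, grey for wild type and orange for deletion, and bars are means of the libraries of 1 genotype and litter. The second litter lies above the first in both panels, and deletion 5 is at 6.41 and 7.01.

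Deletion 5 was nearer to the second litter's mean for 30 of the 40 genes, 13 replication and 17 mitosis genes, as were 54.8% of all genes and 66.4% of the genes called between litters. For 15 genes it lay between the ranges of the litters, for 13 within the second and for 5 within the first. For 7 genes it lay above the second, and these were Pcna, Ccne2, Slbp, Bub1, Ccnb1, Ccna2 and Kif11. Mki67 was at 42.7 CPM there, beside 42.1 CPM in deletion 2, the lowest library.

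Markers of several cell types differed between the same litters. Macrophage and leukocyte markers summed to 191.8 to 315.1 CPM in the first and 58.2 to 111.6 CPM in the second, and 6 of 8 fell. Skeletal muscle markers summed to 33.6 to 206.5 CPM and 6.18 to 30.1 CPM. Of the list's 6 genes 2 could be tested, and 1 of these, Ckm, fell. Myf5, Myf6 and Mymk were under 1 CPM in every library. With so few genes, this list is not read as a measure of skeletal muscle cells. The macrophage and skeletal muscle sums were both lower in every library of the second litter than in any of the first. Cushion and neural crest markers summed to 2816 to 4347 CPM and 3228 to 3901 CPM, with 4 of 8 rising and Tfap2a under 1 CPM throughout. Outflow tract and second heart field markers summed to 893.5 to 987.7 CPM and 1052 to 1217 CPM, with 3 of 11 rising and 0 falling. The litters overlapped in the cushion sum and were apart in the outflow tract sum. Endothelial markers summed to 792.7 to 934.9 CPM and 844.1 to 1029 CPM, with 3 of 9 rising and 2 falling. Erythroid sums overlapped, at 1887 to 10350 CPM and 1830 to 5090 CPM, with 1 of 13 rising and 1 falling, in this fit over both genotypes. Cardiac muscle, smooth muscle, neuronal and foregut markers had 0 calls with edgeR, epicardial markers 1 of 9 falling, and Nkx2-1, Foxa2 and Shh of the foregut list were under 1 CPM in every library, Shh at 0. Their part in the difference of the 40 genes was not tested.

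Deletion against wild type, the comparison of the study's design, called 0 of the 40 genes with edgeR over all 9 libraries, where it also called 0 of the 16522 genes (0%). At an unadjusted p under 0.05 the counts were 0 replication and 0 mitosis genes, against 5.27% of all genes. This fit held no litter term, so the difference between litters counted as spread within each genotype. The 40 genes differed between litters more often than all genes did. Neither this share nor the overlap of the genotypes given below therefore shows that genotype differences were rarer among them. DESeq2 also called 0 of the 40, with 38 genes (0.201%) called in all, or 69 with the replicate number as a block. The estimates ran from -0.37 to 0.21 on the log2 scale, with medians of -0.09 for the replication and 0.01 for the mitosis genes, and 5 and 11 of 20 lay above 0, against 50.6% of all genes. The genotypes overlapped in all 40 genes, while they did not in 1.8% of all genes.

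The largest estimates among the replication genes were Fen1 at -0.37 (SE 0.34) and Ccne1 at -0.31 (SE 0.14), and among the mitosis genes Mki67 at -0.34 (SE 0.23) and Cenpf at -0.21 (SE 0.19). The smallest adjusted p among the 40 was 0.896, for both Ccne1 and E2f1, and the unadjusted p of Ccne1 was 0.0512. Ccne1 was at 36.8 to 48.3 CPM in the wild types and 27.0 to 43.7 CPM in the deletion libraries, with deletion 4 above 3 of the 4 wild types. Pcna, Cdk1 and Top2a differed by 0.02 (SE 0.13), 0.02 (SE 0.15) and -0.00481 (SE 0.21), and E2f1 by -0.17 (SE 0.10). The SE of the genotype estimates, 0.10 to 0.34 for the 40 genes, was larger than that of the litter estimate, 0.07 to 0.34, in 37 of them. The genotype fit held no litter term, while the litter fit held genotype as a covariate. With litter as a covariate the medians were -0.10 and -0.02 and the calls 0 and 0. Leaving out any 1 library gave 0 calls as well: the medians were 0.01 and 0.09 without deletion 2, and -0.17 and -0.10 without wild type 1. Of the 96 tested genes on the 11 marker lists genotype called 0 with edgeR, and 25 had an unadjusted p under 0.05, against 5.27% of all genes.

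**Figure D3:**
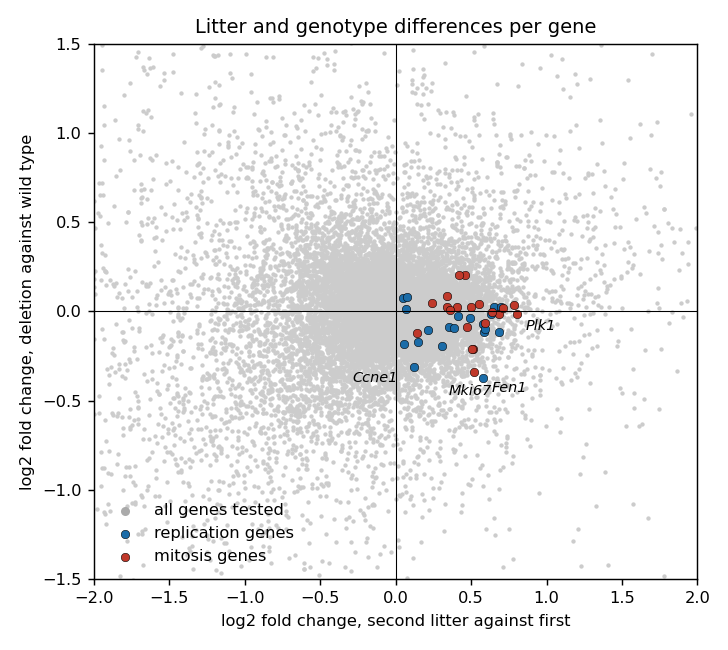
Each gene's log2 fold change of the second litter against the first (x axis) and of deletion against wild type (y axis). Grey dots are all genes tested, blue the replication and red the mitosis genes; 617 genes beyond 2 on the x axis or 1.5 on the y axis are not shown. All 40 genes lie right of 0 on the x axis and between -0.37 and 0.21 on the y axis.

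Genotype was then compared within each litter, 2 libraries against 2, in 1 fit that also gave the test of the difference between litters. Within the first litter 0 of the 40 genes passed with edgeR (0.0666% of all genes did) and 3 had an unadjusted p under 0.05, against 13.6% of all genes. Within the second litter 0 passed (0% of all genes) and 2 had an unadjusted p under 0.05, against 2.64%. There 3 of the 20 replication and 2 of the 20 mitosis estimates were above 0, against 50.5% of all genes. Their medians were -0.09 and -0.08. In the first litter 6 and 13 of 20 were above 0, against 50% of all genes, with medians of -0.09 and 0.04. The test of the difference called 0 of the 40 with edgeR and 0 with DESeq2, against 0.0121% and 1.11% of all genes, and 3 had an unadjusted p under 0.05 against 8.04%. Its estimates were above 0 for 10 of the 20 replication and 1 of the 20 mitosis genes, against 48.6% of all genes, with medians of 0.01 and -0.11 that ranged from -0.15 to 0.16 and from -0.26 to -0.005 when 1 library was left out.

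Cell type markers differed between genotypes within the same litters. Of all genes, 13.6% had an unadjusted p under 0.05 in the first litter and 2.64% in the second. In the first litter 12 of 13 erythroid genes were below 0 (median -1.82) with Hbb-bs and Hbb-bt called lower, and their summed level was 6673 and 10350 CPM in the wild types and 4396 and 1887 CPM in the deletion libraries. In the second litter all 13 were above 0 (median 1.18, 0 called by edgeR and 8 at an unadjusted p under 0.05), at 1830 and 2241 CPM against 5090 and 3382 CPM. Both genes that the test of the difference called among all 16522, Hbb-bs and Hbb-bt, are globins of this list, whose median was 3.02 there. In the first litter the 8 cushion and neural crest genes all had an unadjusted p under 0.05 (median 0.93, 0 called), Krt19 of the epicardial list was called lower, and the neuron and Schwann list had a median of 4.05 with 0 of 11 called, 7 at an unadjusted p under 0.05, and its sum high in deletion 2. In the second litter the cushion, epicardial and neuronal lists had medians of 0.04, -0.02 and 0.66, with 0 calls by edgeR and 0, 1 and 1 genes at an unadjusted p under 0.05. The part of these cells in the genotype values of the 40 genes was not tested.

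The 3 genes of the 40 with an unadjusted p under 0.05 in the test of the difference were the cyclins Ccne1, Ccne2 and Ccnb1. Ccne1 was at 48.3 and 41.4 CPM in the first litter's wild types and at 30.4 and 27.0 CPM in its deletion libraries. In the second litter it was at 41.1 and 36.8 CPM in the wild types and at 34.9 and 43.7 CPM in the deletion libraries. The genotypes were thus apart in the first litter and overlapped in the second, with estimates of -0.64 (SE 0.16) and 0.01 (SE 0.16). The first had an unadjusted p of 0.00398 and an adjusted p of 0.168 with edgeR, passed with DESeq2 at adjusted p = 0.0291 and, without the filter on low counts, with edgeR at 0.0156. The difference between the litters was 0.65 (SE 0.23), adjusted p = 0.52, and was not called by edgeR in any alternative.

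Ccne2 was at 59.4 and 60.5 CPM in the first litter's wild types against 72.3 and 73.8 CPM in its deletion libraries, and at 75.1 and 75.5 CPM against 67.7 and 56.7 CPM in the second. The genotypes did not overlap in either litter and stood in opposite order, with estimates of 0.28 (SE 0.12) and -0.28 (SE 0.12). The difference of -0.56 (SE 0.17) had an unadjusted p of 0.00961 and adjusted p = 0.483. Ccnb1 was at 134 and 166 CPM in the first litter's wild types against 200 and 196 CPM in its deletion libraries, and at 236 and 233 CPM against 225 and 229.9 CPM in the second. The estimates were 0.40 (SE 0.12) and -0.04 (SE 0.12), and their difference of -0.44 (SE 0.17) had adjusted p = 0.565. Cenpf, at 81.3 and 85.6 CPM in the second litter's wild types and 67.4 and 57.6 CPM in its deletion libraries, differed by -0.42 (SE 0.16) there with an unadjusted p of 0.03 and an adjusted p of 1, and by -0.07 (SE 0.16) in the first.

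**Figure D4:**
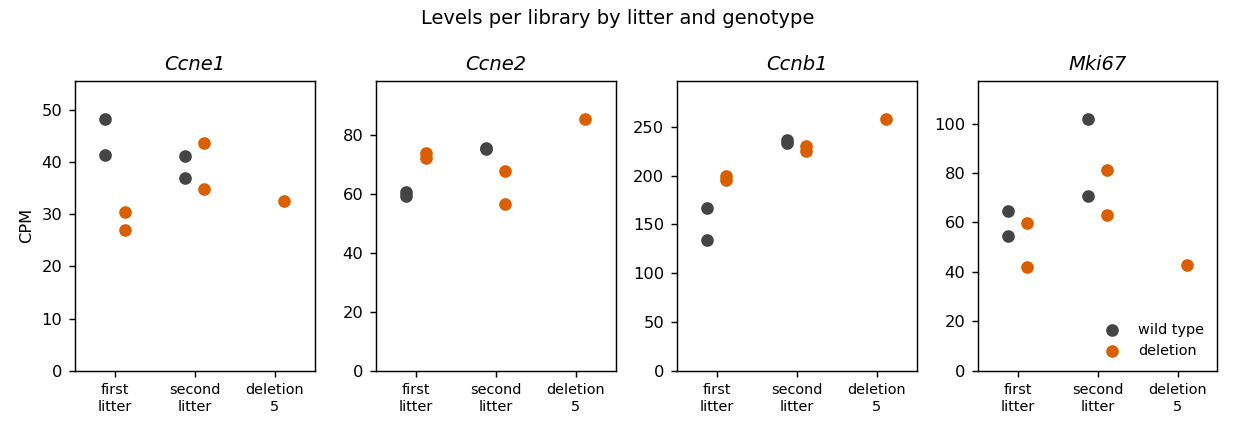
CPM of Ccne1, Ccne2, Ccnb1 and Mki67 in each library, by litter read from the file number. Points are libraries, grey for wild type and orange for deletion, and each y axis starts at 0. In the first litter the genotypes stand apart in Ccne1, with the deletion libraries lower at 27.0 to 30.4 CPM, and in Ccne2 and Ccnb1, with the deletion libraries higher at 72.3 to 73.8 and 196 to 200 CPM. In the second litter Ccne2 and Ccnb1 stand apart in the reverse order, and Mki67 has deletion 5 at 42.7 CPM.

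Further genes of the cell cycle were read from 10 lists beside the 40 genes, also chosen with earlier results of these data known. Between litters, 58 of 247 tested genes, on 7 of these lists, rose (23.5%, against 5.48% of all genes) and 1 gene of another list fell (4.17% of all genes did). Of 40 genes for the spindle, chromosome structure and cytokinesis 19 rose, with a median of 0.43 over the list, and the smallest p belonged to the kinesins Kif2c, at 0.76 (SE 0.09), Kif22, Kif18b and Kif20a. Of 30 genes for the fork and chromatin assembly 11 rose, with a median of 0.28: Pole, the leading strand polymerase, differed by 0.99 (SE 0.11), Chaf1a, a histone chaperone subunit, by 0.71 (SE 0.09), Chtf18, a clamp loader subunit, by 0.68 (SE 0.10) and Dnmt1, the maintenance methyltransferase, by 0.59 (SE 0.10). Of 15 genes for nucleotide synthesis 3 rose, namely Cad, Umps and Gart, with a median of 0.24. Of 18 for origin licensing and firing 0 were called by edgeR and 3 had an unadjusted p under 0.05 (16.7%, against 27.2% of all genes), at a median of 0.17, so these counts were not above the background.

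Of 28 genes of E2F, RB, MuvB and the G1 cyclins 10 rose, with a median of 0.24, and they included Ccnd1, a cyclin D, at 1.00 (SE 0.18), E2f7, a repressive E2F, at 0.78 (SE 0.14), Skp2, which marks a CDK inhibitor for breakdown, at 0.63 (SE 0.10) and Myc at 0.63 (SE 0.11). Of 24 genes of G2 and M control 6 rose, with a median of 0.22, among them Ccnf, Rcc1, Fbxo5 and Fzr1, of which Fbxo5 and Fzr1 encode an inhibitor and an activator of the anaphase-promoting complex. Of 32 kinetochore and checkpoint genes 3 rose, Kntc1, Bub3 and Mad1l1, with a median of 0.22, and their share of 9.38% was close to the 5.48% of all genes. Of 18 genes of the DNA damage checkpoint and repair 6 rose, with a median of 0.33, and the smallest p belonged to Brca1, Trp53, Fancd2 and Fanci. Of the replication-dependent histones 31 of 70 symbols could be tested, 0 were called by edgeR and 3 had an unadjusted p under 0.05 (9.68%, below the share of all genes), at a median of 0.29. Most of these symbols were too low to test, and how well the SMART-Seq libraries capture histone RNAs is not given in the sources used here. The lack of calls is therefore not read as a result about histone RNA in S phase.

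Of 11 tested CDK inhibitors and quiescence genes 0 rose and 1 fell, with a median of -0.17. Of all genes 5.48% rose and 4.17% fell. At an unadjusted p under 0.05 were 3 of the 11 (27.3%, against 27.2% of all genes), so this share was near the background. The estimates of 3 genes were above 0 and not called: Cdkn2b at 0.67 (SE 0.36), Cdkn1a at 0.36 (SE 0.17) and Cdkn3 at 0.18 (SE 0.17). The other 8 were below 0. The gene that fell was Cdkn1b, the inhibitor p27, which stood at 16.1, 13, 19.6 and 23.7 CPM in the first litter, 11.4, 10.2, 12.1 and 11.1 CPM in the second and 16.4 CPM in deletion 5. Its litters did not overlap, and its difference was -0.66 (SE 0.15) with adjusted p = 0.032. Cdkn1c, the inhibitor p57, measured 880.3, 675, 517 and 391.5 CPM in the first litter, 406, 407, 388 and 432 CPM in the second and 366 CPM in deletion 5. Wild type 1 and wild type 2 were the highest libraries, and the difference of -0.54 over both genotypes had adjusted p = 0.0895. Within the wild types Cdkn1c fell by 0.94 (SE 0.18) on the log2 scale with adjusted p = 0.0297, and within the deletion libraries it was at -0.15 (SE 0.17) with adjusted p = 0.687. The test of the difference between genotypes had adjusted p = 0.506. Ccnd1 was at 53.5, 52.8, 57.4 and 32.8 CPM in the first litter, 111, 84.1, 112 and 85 CPM in the second and 75.1 CPM in deletion 5, with the litters apart. Deletion against wild type called 0 genes on each of the 10 lists with edgeR, with medians from -0.06 to 0.09. At an unadjusted p under 0.05 were 5 of their 247 tested genes, against 5.27% of all genes.

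**Figure D5:**
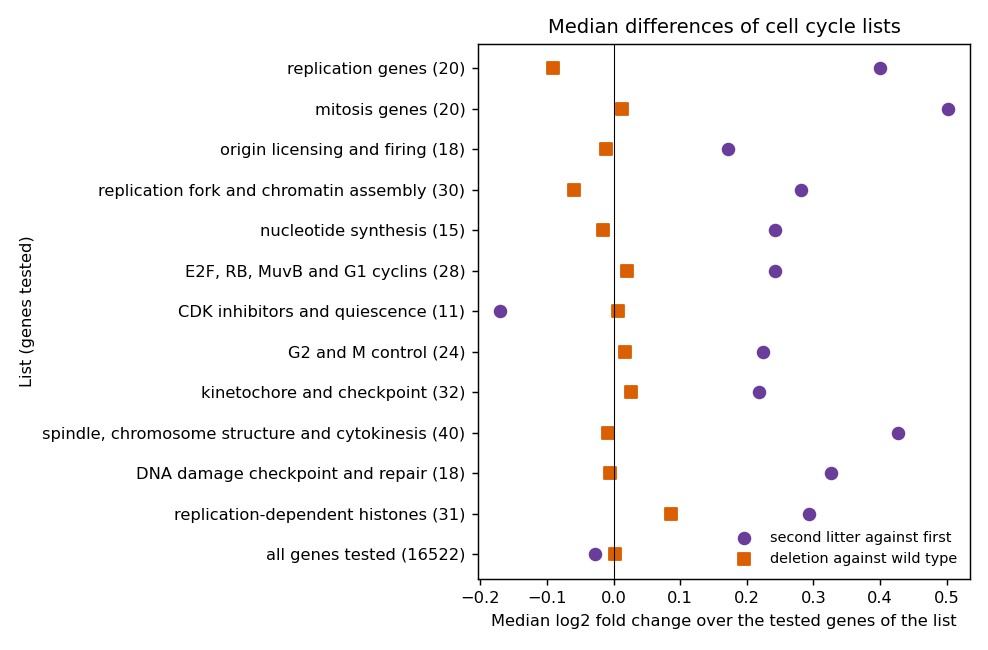
Median log2 fold change over the tested genes of each list (number tested in brackets), with circles for the second litter against the first and squares for deletion against wild type. The last line gives all genes tested. For litter the medians of the mitosis and replication genes, 0.50 and 0.40, lie right of that of all genes, -0.03, and for genotype every list lies between -0.09 and 0.09.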

How the data were processed

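RNA from dissected outflow tracts was made into SMART-Seq libraries, per the labels' protocols. The authors deposited 1 file of raw read counts per gene for each of the 9 libraries (4 wild type, 5 deletion). The build was mm10, and HTSeq 0.6.0, STAR 2.5.0c, DESeq2 and Picard are the tools named, per the submitters' processing notes. For annotation and strand setting: not given in the sources used here. The 5 rows that name no gene, 20.7% to 23.5% of reads, were left out. Totals per library (27707435 to 49094225 assigned reads) limit the precision of low genes such as Fen1. No 2 libraries agreed within sampling noise.

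Genes passed filterByExpr (minimum count 10), were scaled by TMM and fitted with edgeR 4.0.16 (robust quasi-likelihood, R 4.3.3): genotype over 9 libraries, litter with genotype as covariate and deletion 5 as a level of its own, and 1 mean per genotype and litter. DESeq2 1.42.0 was an alternative, as were RLE and upper quartile scaling, other filters, each library left out, litter or replicate number as a block, and erythroid genes left out. Log2 CPM used a prior count of 2. Standard errors are the log2 fold change over the square root of F. Replicate numbers 1 to 4 of the labels, taken to pair a wild type with a deletion library, had deviations correlated at 0.242, 0.137, 0.227 and 0.176. The 40 genes and all lists were chosen with earlier results of these data known, so no list is an independent test. Values in every library were given for the 40, Nkx2-5, Cdkn1b, Cdkn1c and Ccnd1. From the other cell cycle lists at most 4 genes per list were named, with the smallest p among those called. Cdkn1c was added after its values were seen, and Cdkn1a, Cdkn2b and Cdkn3 as the genes of its list above 0. Gene models came from GENCODE M21 (GRCm38) and promoters from RefSeq (GRCm38.p6); Mymk, Knl1, Sgo1 and Sgo2a were matched by older symbols. On simulated data, with 50 genes changed 1.25-fold among 16522, edgeR recovered 2% for genotype and 0% for litter. With 50 changed 1.5-fold it recovered 34% and 30%. With 50 changed 4-fold it recovered 76% and 86%. Of its 86 and 89 calls over all fold sizes, 4 and 11 were false. The genotype simulation held no litter difference, unlike these data. Its shares therefore cannot be read as what the genotype test could find among genes that differ between litters.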

Additional observations from a re-analysis of the deposited data

Results flagged for a closer look

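Deletion 2 lay apart from the other 4 deletion libraries in 3 of the 40 genes by Dixon's criterion at 95%, which compares the gap to the nearest library with the range of the group. Tyms was at 61.6 CPM there, with the nearest deletion library at 97.1 CPM. Gins2 was at 22.6 CPM, the nearest at 28.3 CPM, and Birc5 was at 85.2 CPM, the nearest at 120.8 CPM. These were 3 of 80 groups tested, and chance alone gives about 1 in 20. Deletion 2 was also the library with 2818 CPM of neuron and Schwann cell markers, and the part of those cells in the 3 values was not tested. The genotype difference was not shown to differ between litters in any of the 40 genes by the adjusted test of that difference.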

How the results depend on the processing

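No alternative called any of the 40 genes by genotype over both litters or by the test of the genotype difference between litters; within the first litter Ccne1 was called with DESeq2 and with no filter. The replicate block with edgeR gave 0 genes by genotype; over all genes the genotype count was 38 with DESeq2, 69 with the replicate block in DESeq2 and 0 to 1 with 1 library left out (1 without wild type 3). The block gives deletion 5 no weight, could not enter the litter comparison and changed no call among the 40. The litter count over all genes was 3141 with DESeq2 and 346 (without wild type 3) to 1717 (without deletion 2) with 1 library left out, being 391 without wild type 4, 420 without deletion 3, 784 without deletion 4 and 982 without wild type 1; mitosis genes then ranged from 7 to 15 and replication genes from 7 to 11. Fewer libraries leave fewer degrees of freedom, and where 1 library is left in a genotype and litter it is assumed to vary like the other groups; other causes were not tested. The test of the genotype difference called 2 genes of all, 10 with deletion 5 read as second litter, 179 with DESeq2, 735 with no filter and 0 to 243 with 1 library left out (243 without deletion 1, 9 without wild type 1); the cause was not tested.

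Values near 0 turned in sign, and none of these passed the test either way. Between litters with 1 library left out, Ccne1 ranged from -0.00364 to 0.23, Ccne2 from -0.0159 to 0.16, Gins2 from -0.0388 to 0.12, Pcna from -0.0245 to 0.21 and Slbp from -0.000221 to 0.18. By genotype, Cdk1 ranged from -0.0655 to 0.15, Pcna from -0.0419 to 0.10 and Top2a from -0.13 to 0.14 in the same way; with litter as a covariate Cdk1 was -0.000191 and Pcna -0.0405, with the replicate block Cdk1 was -0.00235 and Pcna -0.0559 (-0.0506 in DESeq2), and with deletion 5 as second litter Cdk1 was -0.00909. Within the second litter, reading deletion 5 as part of it gave 0.0192 for Ccnb1 and -0.0744 for Ccne1, which ranged from -0.16 to 0.16 with 1 library left out. Depth limits Fen1 most, with 28 to 87 reads against at least 649 for the others.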
